A study of Mus musculus with 10 samples.

Results

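The transcripts of 10 genes of fat cell formation and lipid storage were examined in mouse embryonic fibroblasts (MEFs), the mixed connective tissue cells that grow out of dissociated mouse embryos. The genes are the regulators Pparg, Cebpa, Cebpb and Cebpd, the fatty acid uptake genes Lpl, Cd36 and Fabp4, and the synthesis and storage genes Scd1, Scd2 and Plin2. They were chosen by name, and all 10 had a row among the 52550 genes of the deposited table and passed the filter on low counts. The cultures were C57BL/6 MEFs from embryonic day 14 at passage 3, with 5 libraries labelled male and 5 labelled female. Both groups were grown in the same serum-containing medium, and the labels name no transgene, no drug and no treatment that would induce fat cells. Separate embryos, separate cultures and pooling are not mentioned in the labels, so the p-values rest on the spread among these 10 libraries, which may be partly or wholly technical.

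Fat cells form from fibroblast-like progenitors through a cascade of transcription factors. C/EBPbeta (Cebpb) and C/EBPdelta (Cebpd) act early and switch on PPARgamma (Pparg), a nuclear receptor for fatty acids that binds DNA with RXR, and C/EBPalpha (Cebpa), and these then keep each other on and activate the genes of the lipid-filled cell. MEFs are a classic model of this process because they turn into fat cells when treated with an inducing cocktail. The lipid genes studied here are not exclusive to fat cells: stearoyl-CoA desaturases (Scd1, Scd2) make monounsaturated fatty acids for membranes in most cells under control of the SREBP factors, and perilipin 2 (Plin2) coats small lipid droplets in many cell types.

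Strand-specific libraries were made from total RNA after ribosomal RNA depletion and gave between 30662616 and 45859721 uniquely mapped gene reads per library. Of these reads, 22.5% to 28.6% lay in introns. The fibroblast label held against its markers: Vim was at 2711 RPKM (unique exon reads scaled to exon length and library size) and Col1a1 at 1407 RPKM on average, and 13 of 14 fibroblast and adipose progenitor markers passed the filter, all but Pi16. Genes of other cell types were low but not all absent. Macrophage markers summed to between 49.8 and 120.7 CPM (gene reads scaled to library size) with 13 of 15 tested, and endothelial markers to between 113.2 and 174.0 CPM with 11 of 14 tested. Epithelial markers summed to between 63.8 and 124.7 CPM with 7 of 9 tested, Krt19 making up 80.0% of the sum. In a bulk sample, fewer cells of a type and less RNA per cell cannot be told apart.

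Sequences at the starts of the Pparg and Cd36 genes are shown first, because these genes moved together across the libraries (values follow). PPARgamma with RXR binds 2 copies of AGGTCA with 1 base between them, and Cd36 is a known PPARgamma target in fat cells. RefSeq (GRCm38.p6) gave promoter windows of 300 bases, 250 before and 50 after the start, for 5 of the 10 genes: Pparg, with 3 windows, Cebpa, Cebpb, Cd36 and Plin2. Of these 7 windows, 3 are printed, 5′ to 3′ on the gene's strand. Capitals mark matches on either strand to AGGTCA, to CCAAT or to TTGCNNAA, a loose form of the C/EBP site. The printed windows are Pparg at its upstream start (chr6:115360894-115361193, plus strand), Pparg at its downstream start (chr6:115421816-115422115, plus strand) and Cd36 (chr5:17835847-17836146, minus strand).

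Pparg upstream start: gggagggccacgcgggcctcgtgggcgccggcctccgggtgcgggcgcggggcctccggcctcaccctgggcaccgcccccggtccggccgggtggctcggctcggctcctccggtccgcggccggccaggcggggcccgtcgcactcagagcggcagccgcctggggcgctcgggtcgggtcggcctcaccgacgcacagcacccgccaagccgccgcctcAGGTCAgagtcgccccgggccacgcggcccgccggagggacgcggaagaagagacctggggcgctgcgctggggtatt

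Pparg downstream start: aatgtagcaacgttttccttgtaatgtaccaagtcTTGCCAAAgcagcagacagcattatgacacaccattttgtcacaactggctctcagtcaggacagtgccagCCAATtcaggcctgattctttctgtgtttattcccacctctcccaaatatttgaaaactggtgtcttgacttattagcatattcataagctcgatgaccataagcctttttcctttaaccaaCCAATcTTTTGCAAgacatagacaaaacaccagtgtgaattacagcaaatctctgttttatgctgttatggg

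Cd36: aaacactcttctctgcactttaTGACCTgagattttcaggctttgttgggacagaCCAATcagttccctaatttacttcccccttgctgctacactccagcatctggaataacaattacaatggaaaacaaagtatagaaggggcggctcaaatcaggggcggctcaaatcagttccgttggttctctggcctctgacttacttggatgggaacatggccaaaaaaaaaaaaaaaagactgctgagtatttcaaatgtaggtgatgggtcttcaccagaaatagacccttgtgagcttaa

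The upstream Pparg window held AGGTCA from 28 bases before the start and no CCAAT or TTGCNNAA. The downstream window, whose start lies 61115 bases inside the gene, where GENCODE M21 begins the transcript Pparg-201, held no AGGTCA. It carried CCAAT from 144 and from 22 bases before the start and TTGCNNAA from 215 and, on the other strand, from 16 bases before it. Fat cells are known for using the downstream promoter, whereas the deposited table has 1 row for the gene and does not separate its starts. The Cd36 window, whose start lies 52905 bases inside the gene, held AGGTCA on the other strand from 228 bases before the start and CCAAT from 195. The middle Pparg window, not printed, held AGGTCA from 9 bases before the start and, on the other strand, CCAAT from 83. GENCODE M21 begins Pparg-206 and Pparg-203 there, and no transcript at the upstream or Cd36 start. The Plin2 window, also not printed, held AGGTCA on the other strand from 218 bases before the start and CCAAT from 73. Among all 32851 RefSeq windows of this length, 16.3% held AGGTCA, 37.4% held CCAAT and 10.8% held TTGCNNAA, and 0.0396% held the full tandem element, which was in no window of the 5 genes. The palindromic C/EBP site TTGCGCAA, which is included in TTGCNNAA, and the sterol element TCACNCCAC were in no window of the 5 genes, and in 0.183% and 1.24% of all windows. GGGCGG was in every one of the 5 genes' windows but those of Cebpa and of the downstream Pparg start (35.7% of all), TATAAA in those of Cebpa, Cebpb and the middle Pparg start (13.6%) and CACGTG in that of Plin2 (7.15%). These matches describe letters and not sites in use.

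The regulators of fat cell formation were all transcribed in these cultures, at low to moderate levels. Levels between genes are compared as RPKM, means ± SD over the 10 libraries. Cebpb (chr2:167688915-167690418) was the highest of the 4 at 16.3 ± 2.09 RPKM, followed by Cebpd (chr16:15887286-15891031) at 8.16 ± 1.08, Pparg (chr6:115360951-115490399) at 3.04 ± 0.93 and Cebpa (chr7:35119293-35121928) at 2.02 ± 0.42. The early-acting pair stood above the pair that acts later, and the median of the 16602 tested genes was 2.91 RPKM. Only 36.4% of the reads assigned to Cebpb mapped uniquely, and counting all its exon reads put it at 38.6 RPKM. On the opposite strand, Tmem189 overlaps Cebpb, Spidr overlaps Cebpd, Gm45091 overlaps Cebpa and Gm44079 overlaps Pparg, and whether the counts used the strand is not given in the sources used here.

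Pparg, the master regulator of the group, was at 7.99, 13.7, 19.6, 12.1 and 18.6 CPM in male replicates 1 to 5 and 9.03, 7.91, 12.4, 10.8 and 14.3 CPM in female replicates 1 to 5. The highest library was 2.47 times the lowest, and the sexes overlapped. Of its unique gene reads, 47.6% lay in introns, against 22.5% to 28.6% over all genes in any library.

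Cebpa, which acts with Pparg in the later step, was at 2.87, 3.44, 3.30, 4.23 and 5.54 CPM in the male libraries and 4.09, 3.70, 2.99, 4.13 and 5.03 CPM in the female ones. Replicate 5 was the highest library of each sex. This single-exon gene rested on 101 to 226 unique reads a library.

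Cebpb was at 16.8, 20.5, 16.1, 20.1 and 15.7 CPM in the male libraries and 17.2, 24.9, 15.5, 18.03 and 17.1 CPM in the female ones. Female replicate 2 stood above the other 9 libraries. Cebpd was at 22.5, 23.9, 20.4, 30.2 and 21.8 CPM in the male libraries and 23.1, 26.3, 16.2, 23.7 and 19.2 CPM in the female ones, with male replicate 4 the highest and female replicate 3 the lowest.

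The 3 uptake genes were transcribed at levels near those of Pparg. Lpl, the secreted lipase that frees fatty acids from lipoproteins, was at 4.18 ± 0.44 RPKM (SD, n = 10; chr8:68880491-68907448). Fabp4, a fatty acid carrier that is abundant in mature fat cells, was at 4.54 ± 1.46 RPKM (chr3:10204088-10208576). Cd36, a fatty acid receptor of the cell surface, was the lowest of the 10 genes at 1.37 ± 0.32 RPKM (chr5:17781690-17888801).

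Lpl varied little: it was at 18.8, 21.8, 20.1, 20.6 and 21.5 CPM in the male libraries and 21.8, 25.0, 20.4, 21.7 and 27.2 CPM in the female ones. Female replicates 5 and 2 were above every male library, and the other females overlapped the males. Cd36 was at 3.07, 3.76, 5.12, 4.03 and 4.76 CPM in the male libraries and 3.98, 2.57, 4.31, 3.82 and 5.43 CPM in the female ones, on 100 to 207 unique reads a library. Fabp4 rested on 63 to 180 unique reads and was at 2.22, 4.14, 4.07, 2.90 and 4.42 CPM in the male libraries and 2.74, 2.34, 3.33, 3.17 and 1.65 CPM in the female ones. Its lowest library was female replicate 5 and its highest male replicate 5.

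The synthesis and storage genes were far higher than the regulators. Scd2 (chr19:44293676-44306864) was at 343.6 ± 92.3 RPKM (SD, n = 10), rank 72 of the 16602 tested genes, and took 71.4% of the unique reads of all 10 genes together. Scd1 (chr19:44394451-44407709) was at 81.3 ± 21.2 RPKM, rank 439, and Plin2 (chr4:86648386-86670060) at 68.0 ± 4.07 RPKM, rank 569. The ratio of Scd2 to Scd1 in RPKM held between 3.56 and 4.58 in every library, with a mean of 4.22 ± 0.27 (SD, n = 10). Of the reads of these related genes, 96.8% for Scd2 and 96.6% for Scd1 mapped uniquely.

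Scd2 was at 1799, 1538, 991, 1428 and 915 CPM in male replicates 1 to 5 and 1884, 1976, 1118, 1448 and 1033 CPM in female replicates 1 to 5. Scd1 was at 376, 319, 209.9, 282 and 226 CPM in the male libraries and 398, 411, 226, 279 and 215 CPM in the female ones. For both genes the 4 lowest libraries were replicates 3 and 5 of each sex, at 915 to 1118 CPM of Scd2, below the other 6 at 1428 to 1976 CPM. The labels do not say whether a shared number marks a shared litter, culture or day. Plin2 was the steadiest of the 10 genes, with 179, 213, 176, 206 and 172 CPM in the male libraries and 185, 189, 174, 187 and 169.7 CPM in the female ones, a coefficient of variation of 7.79%.

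**Figure D1:**
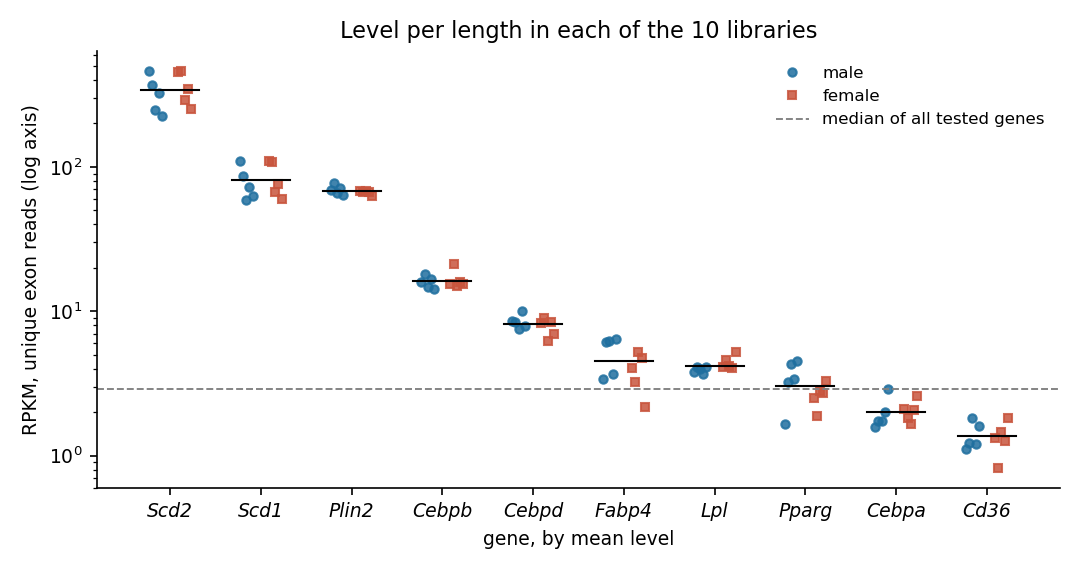
Level of each gene in RPKM (log axis) in the 5 male and 5 female libraries. Points are libraries, black bars are means over all 10, and the dashed line is the median of all tested genes, 2.91 RPKM. Scd2, Scd1 and Plin2 lie well above the regulators and uptake genes, and the sexes overlap for every gene.

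In order of mean level the 10 genes ran Scd2, Scd1, Plin2, Cebpb, Cebpd, Fabp4, Lpl, Pparg, Cebpa and Cd36, and the first 8 were above the median of tested genes. Of the 9 pairs of neighbours in that order, 7 differed within libraries (two-sided exact sign-flip permutation test, adjusted p of 0.0176 for Lpl over Pparg, 0.00586 for Cebpa over Cd36 and 0.00352 for the other 5). The smallest p this test allows is 0.00195 before adjustment. Scd1 and Plin2 were not separated, with a log2 difference of 0.22 ± 0.34 (SD, n = 10; adjusted p = 0.108 by the same exact test), nor were Fabp4 and Lpl, with 0.05 ± 0.59 (adjusted p = 0.801, exact test).

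Genes that mark finished fat cells were near 0 in the same libraries. Of 21 mature fat cell genes, 9 passed the filter and 13 had a mean under 0.1 RPKM. Adipoq, which encodes the fat cell hormone adiponectin, had 22 unique reads summed over the 10 libraries, with 0 to 7 in each. Leptin (Lep) had 10 reads, Cidec, a protein of large lipid droplets, had 14, and adipsin (Cfd) had 33. Plin1, the droplet coat of fat cells, was at 0.15 ± 0.04 RPKM and the insulin-responsive glucose transporter Slc2a4 at 0.096 ± 0.041 RPKM (SD, n = 10), against 68.0 for Plin2 and 36.2 for Plin3. Highest on this list were 2 genes of wide expression, the adiponectin receptor Adipor2 at 12.6 RPKM and the lipase Pnpla2 at 9.69 RPKM.

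Partners and opponents of the regulators were present. Rxra, the DNA-binding partner of PPARgamma, was at 14.5 RPKM, and Ppard, its close relative, at 12.8 RPKM, against 0.19 RPKM for Ppara, and the co-activator Med1 was at 16.3 RPKM. Of 16 other activators of fat cell formation, 13 had a mean of at least 1 RPKM, with Klf4 (51.5) and Srebf1 (24.1) highest. Of 14 genes listed as inhibitors, 11 reached that level. Ddit3, which blocks C/EBP binding, was at 23.3 RPKM, Klf2 at 14.3, and the progenitor marker Dlk1 at 8.44. Rxra, Ppard, Ppara, Dlk1 and Scd4 were named after their values were seen. The 4 Scd genes divided by level: Scd3 was at 0.19 RPKM and Scd4 at 0.10.

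None of the 10 genes passed the test between the sexes, which is the comparison the study's title names. The quasi-likelihood test of edgeR called 15 of 16602 genes at an adjusted p under 0.05, a share of 0.0904%, and 0 of the 10. At an unadjusted p under 0.05 the count was again 0 of 10, against 921 of all 16602, and DESeq2 and limma-voom also called 0. With the replicate number as a block, which the labels do not define as pairs, edgeR also called 0 of the 10. That fit had 3 of the 10 at an unadjusted p under 0.05, against 1485 of all 16602. No gene of the 10 had sexes that did not overlap in CPM, which 0.976% of all tested genes did.

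Among the regulators, Pparg averaged 14.4 ± 4.78 CPM over the males and 10.9 ± 2.55 over the females (SD, n = 5), a log2 fold change (female minus male) of -0.40 ± 0.24 (SE), with an unadjusted p of 0.126 and an adjusted p of 0.987 in edgeR. Cebpa, Cebpb and Cebpd had log2 fold changes of 0.03 ± 0.18, 0.06 ± 0.12 and -0.13 ± 0.13 (SE). Fabp4, with the largest difference of the 10, averaged 3.55 ± 0.94 CPM over the males and 2.64 ± 0.68 over the females. Its log2 fold change was -0.42 ± 0.22 (SE), with a p of 0.0685 and an adjusted p of 0.939 in edgeR. Lpl had the smallest p, 0.0552 before and 0.902 after adjustment in edgeR, and averaged 20.6 ± 1.20 CPM over the males and 23.2 ± 2.80 over the females, a log2 fold change of 0.17 ± 0.08 (SE).

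The remaining values were -0.04 ± 0.18 for Cd36, 0.11 ± 0.23 for Scd1, 0.16 ± 0.24 for Scd2 and -0.06 ± 0.07 for Plin2, as log2 fold changes ± SE. In the authors' deposited table every one of the 10 genes had a false discovery rate of 1.0, with signed folds between -1.34 for Fabp4 and 1.13 for Lpl.

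**Figure D2:**
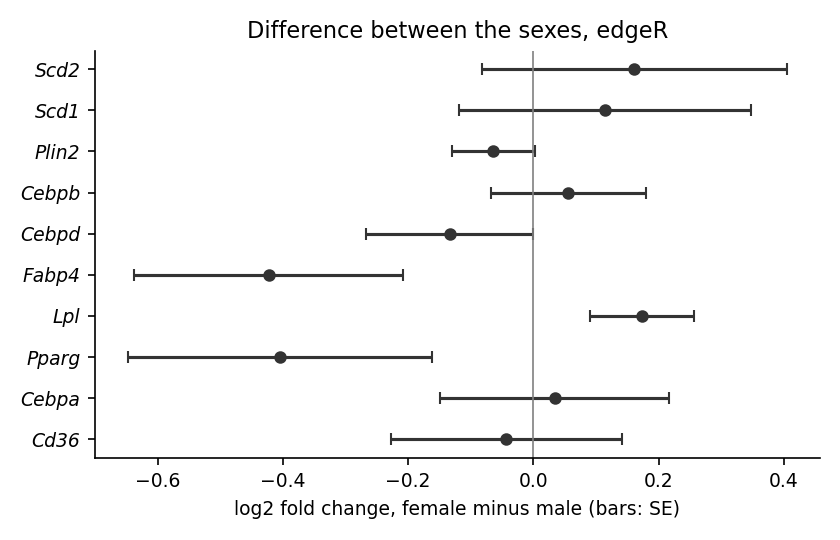
Log2 fold change of each gene, female minus male, from edgeR with 5 libraries a sex. Points are estimates and bars their standard errors, from -0.42 for Fabp4 to 0.17 for Lpl, and none of the 10 passed the threshold.

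Genes on the lists around the 10 genes were not called between the sexes either. Of 16 fat cell activators 7 were higher and 9 lower in females by sign alone, median log2 fold change -0.02. Of 13 tested genes listed as inhibitors 5 were higher and 8 lower with a median of -0.04. The median over all tested genes was 0.0048. The lowest unadjusted p-values were those of the Wnt ligands Wnt10a, with a log2 fold change of -1.52 ± 0.35 (SE; edgeR adjusted p = 0.263), and Wnt10b, with -0.65 ± 0.17 (adjusted p = 0.486), both of which restrain fat cell formation. Plin4, a droplet protein, had -0.54 ± 0.18 and Angptl4, a secreted inhibitor of Lpl, -0.41 ± 0.14 (SE; edgeR adjusted p = 0.647 for both). Wnt10a rested on 11 to 71 reads a library and Wnt10b on 42 to 115. Of 19 genes of fatty acid synthesis and desaturation, 16 were higher and 3 lower in females by sign, with a median of 0.11 and no call.

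Across the libraries, irrespective of sex, Scd1 and Scd2 rose and fell together, Pparg and Cd36 rose and fell together, and each gene of the one pair was low where the other pair was high. Correlations were taken over the 10 libraries on log2(CPM + 0.5), with a two-sided permutation test for each of 45 pairs and adjustment over those pairs. This test takes the 10 libraries as exchangeable, which libraries with the same replicate number may not be. Replicates 3 and 5 of each sex were the 4 lowest libraries in both Scd1 and Scd2. If libraries of the same number are not independent, the permutation p-values given here are too small. An adjusted p under 0.05 was reached by 6 pairs, all among these 4 genes, which is 13.3% of the pairs. Of all 137804901 pairs of tested genes, 0.804% had an absolute r at least as large as the weakest of the 6. The median absolute r was 0.43 over the 45 pairs and 0.28 over all pairs.

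Scd1 and Scd2 had an r of 0.97 and a rho of 0.95 (permutation, adjusted p of 0.0045 and 0.00765), and r stayed between 0.96 and 0.99 without the 2 libraries farthest from the median of either gene. Both genes lie on chromosome 19, on opposite strands. Their unique read shares are given above, and wrong assignment of reads between them was not tested.

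Pparg ran against both desaturases. With Scd2 it had an r of -0.91 and a rho of -0.90 (permutation, adjusted p of 0.00945 and 0.0118). Without the 2 farthest libraries of either gene, r was -0.87 or -0.84. With Scd1 it had an r of -0.87 and a rho of -0.89 (permutation, adjusted p of 0.0175 and 0.0118), and an r of -0.79 by either way of leaving out 2 libraries. Male replicates 3 and 5, highest in Pparg at 19.6 and 18.6 CPM, were lowest in Scd2 at 991 and 915 CPM. Female replicate 2, lowest in Pparg at 7.91 CPM, was highest in Scd2 at 1976 CPM.

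Cd36 had the same signs as Pparg. With Scd1 and with Scd2 it had an r of -0.87 each (permutation, adjusted p of 0.00945 for both) and a rho of -0.89 and -0.88 (adjusted p of 0.0118 for both). Without the 2 farthest libraries, r lay between -0.95 and -0.82. Cd36 and Pparg together had an r of 0.83 and a rho of 0.83 (permutation, adjusted p of 0.0221 and 0.0242), and an r of 0.75 without the 2 libraries farthest in Pparg and 0.87 without those farthest in Cd36.

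**Figure D3:**
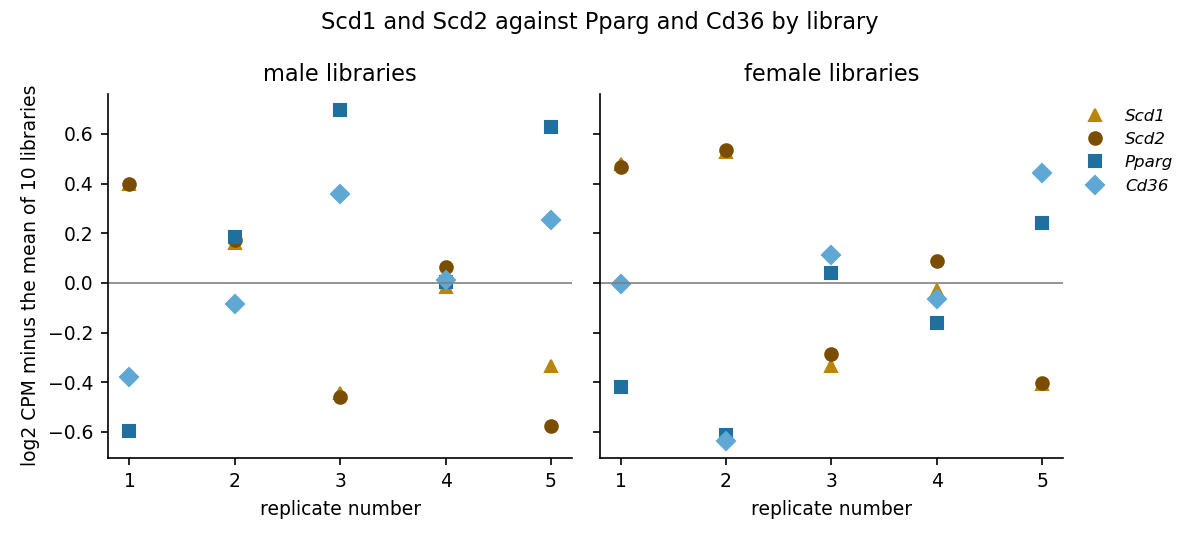
Log2 CPM of Scd1, Scd2, Pparg and Cd36 in each library, minus the gene's mean over all 10, with males on the left and females on the right, by replicate number. Scd1 and Scd2 are lowest in replicates 3 and 5 of each sex, where Pparg and Cd36 are above their means.

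The 6 relations were also present with each gene centred within its sex, where r was 0.98 for Scd1 with Scd2, -0.93 for Pparg with Scd2, -0.90 for Pparg with Scd1, -0.87 for Cd36 with either desaturase and 0.88 for Pparg with Cd36, and all 6 had an adjusted p under 0.05 by permutation. That permutation shuffled all 10 libraries and not those within a sex, and centring on sex leaves differences between replicate numbers in place. Without the 4 libraries low in Scd2, r was nearer 0 for each of the 6 relations but that of Scd1 with Scd2. Among the 6 libraries numbered 1, 2 and 4, a set chosen after the values were seen, r was 0.99 for Scd1 with Scd2 (exact permutation p = 0.00278, the smallest that 6 libraries allow), -0.84 for Pparg with Scd2 (exact p = 0.0708) and -0.68 for Cd36 with Scd2 (exact p = 0.16). The smallest adjusted p over the 45 pairs in this set was 0.125.

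The sums of some marker lists moved with some of the 10 genes. Over 80 relations of the 10 genes with library measures and marker sums, 4 passed an adjusted p under 0.05 by r and none did by rho. The epithelial sum had an r of 0.92 with Pparg (permutation, adjusted p = 0.0184; rho 0.84, adjusted p = 0.0919) and of -0.85 with Scd2 (adjusted p = 0.0482; rho -0.87, adjusted p = 0.0864). Without the 2 farthest libraries these were 0.88 and -0.77. With Scd1 and Cd36 the epithelial sum had an r of -0.81 and 0.75, which missed the threshold (permutation, adjusted p of 0.0733 and 0.0754). The sum was mostly Krt19, a keratin, at 35.1 to 75.2 RPKM, with an r of 0.92 with Pparg. The list's median r was 0.26 with Pparg, with 2 of 7 tested genes at 0.8 or more, and -0.24 with Scd2. The epithelial genes Cdh1, Epcam and Krt5 were under 0.1 RPKM on average, Epcam and Krt5 failed the filter, and sums ran from 63.8 to 124.7 CPM in males and 65.6 to 93.0 in females. Whether the Krt19 reads came from epithelial cells was not tested, nor was any part of such cells in the Pparg result.

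**Figure D4:**
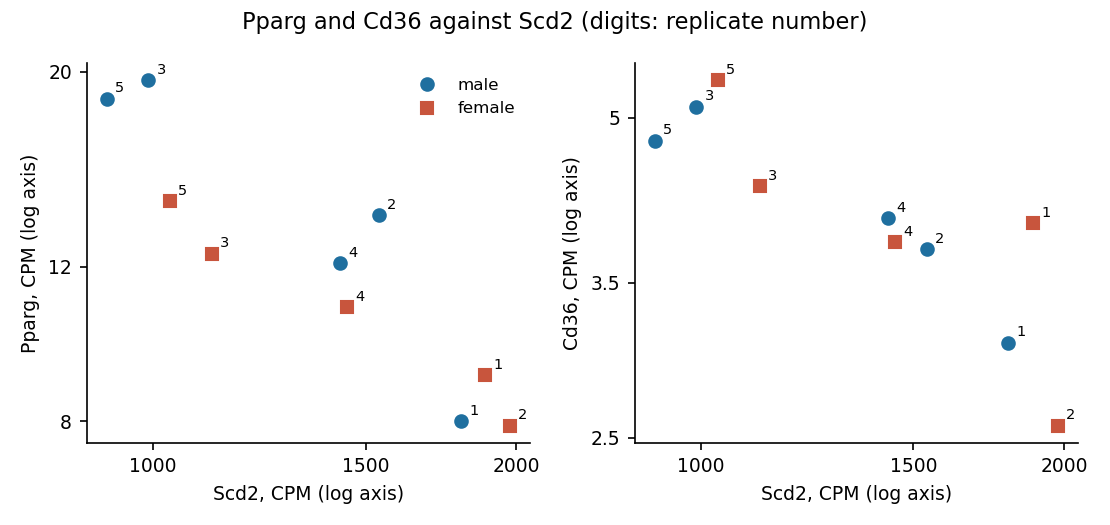
Pparg (left) and Cd36 (right) against Scd2 in CPM on log axes, with 1 point a library and the replicate number beside it. Libraries with 1428 CPM of Scd2 or more have at most 13.7 CPM of Pparg and 4.03 CPM of Cd36, and the 4 with less reach 19.6 and 5.43 CPM.

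The opposed pattern was then sought in separate kinds of reads. Against Scd2 gene reads, Pparg exon reads had an r of -0.83, intron reads of -0.90 and reads across exon junctions of -0.79 (permutation, adjusted p of 0.00858, 0.00301 and 0.0157 over 21 relations, rho of -0.88, -0.90 and -0.87). Without the 2 libraries farthest in Scd2, these became -0.67, -0.84 and -0.66. Intron reads come mostly from unspliced RNA. Scd2 intron reads against Pparg gene reads had an r of -0.87 and a rho of -0.85 (permutation, adjusted p of 0.00504 and 0.00822), and -0.87 without 2 libraries. Intron and exon reads of Scd2 tracked each other with an r of 0.97 and a rho of 0.98 (permutation, adjusted p of 0.00012 and 0.0002 over 4 genes), on 10379 intron reads summed over the libraries. Cd36 exon reads had an r of -0.87 with Scd2 (adjusted p = 0.00301 by permutation), and its intron reads, 11 to 34 a library, one of -0.48 (adjusted p = 0.259). Its junction reads had an r of -0.59 (adjusted p = 0.134), so of the 3 kinds of Cd36 reads only exon reads passed.

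Without centring, no pair with any of the other 6 genes passed the threshold by r. By r over all 10 libraries, Cebpb came nearest to the 4 genes, at -0.70 with Cd36, 0.65 with Scd2 and 0.62 with Scd1. Its adjusted p by permutation was 0.131, 0.166 and 0.203, and its rho -0.62, 0.67 and 0.64. Without the 2 libraries farthest in Cebpb, r was -0.30, 0.49 and 0.37. Cebpd had an r of -0.51, 0.56 and 0.57 with the same genes, and a rho of -0.67, 0.60 and 0.67. None passed the threshold (permutation, adjusted p for rho of 0.139, 0.181 and 0.139). Without the 2 libraries farthest in Cebpd, r was -0.88, 0.78 and 0.80, and without those farthest in the other gene -0.31, 0.61 and 0.53. Plin2 had an r of -0.43 with Cd36, 0.53 with Scd2 and 0.47 with Scd1, and a rho of -0.72, 0.65 and 0.66 (permutation, adjusted p of 0.104, 0.145 and 0.139 for rho). Lpl had an absolute r under 0.05 with each of Scd1, Scd2 and Pparg. Cebpb, Cebpd and Plin2 formed a looser set: r was 0.74 for Cebpd with Plin2, 0.72 for Cebpb with Cebpd and 0.68 for Cebpb with Plin2, which did not pass (permutation, adjusted p of 0.0931, 0.112 and 0.137). By rank these same pairs had a rho of 0.90, 0.88 and 0.83 and did pass (permutation, adjusted p of 0.0118, 0.0118 and 0.0242). Centred within sex, Cebpb with Cebpd passed too, with an r of 0.79 (permutation over all 10 libraries, adjusted p = 0.0349). Cebpd with Plin2 and Cebpb with Plin2, at 0.71 and 0.75, did not (adjusted p of 0.119 and 0.0652). Fabp4, a target of PPARgamma in fat cells, had an r of 0.59 with Pparg (adjusted p = 0.262) and 0.22 with Cd36 (adjusted p = 0.732, both by permutation). Without the 2 libraries farthest in Fabp4 these were 0.91 and 0.76, without those farthest in the other gene 0.45 and 0.75, and among the 6 libraries numbered 1, 2 and 4 they were 0.92 and 0.62 (exact permutation p of 0.00833 and 0.203). The relation with Pparg thus turned on which libraries were included, Fabp4 being lowest in female replicate 5. Cebpa had an r of 0.36 with Pparg.

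**Figure D5:**
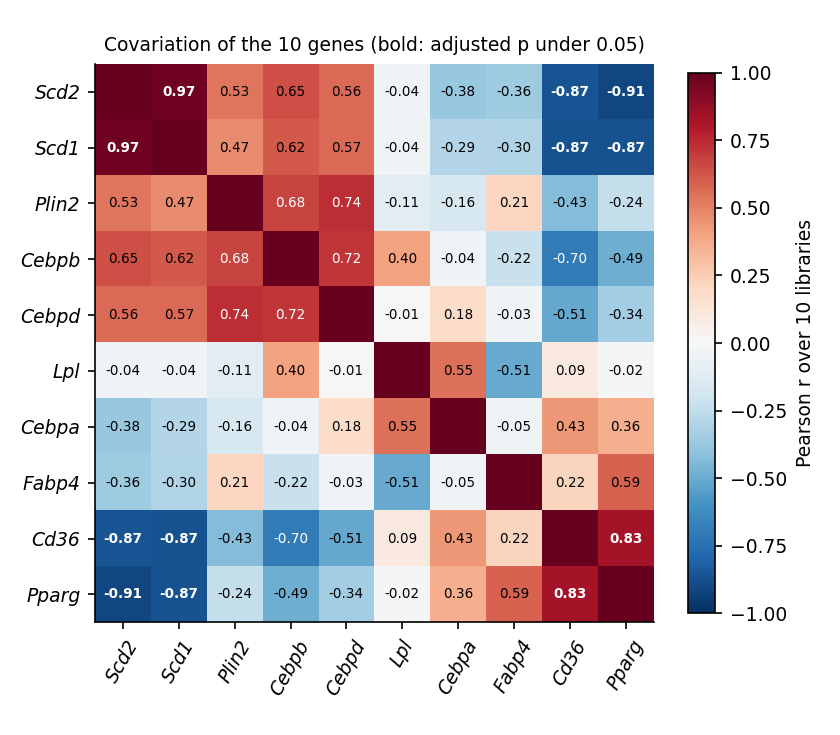
Pearson r of log2(CPM + 0.5) over 10 libraries for each pair of the 10 genes, red for positive and blue for negative, with the value in each square and bold where the adjusted p was under 0.05. The 6 bold pairs join Scd1, Scd2, Cd36 and Pparg.

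Genes of fatty acid synthesis moved with the desaturases. Of 19 listed, 11 had an r of at least 0.8 with Scd2, with a median r of 0.85, against 3.61% of the other tested genes and a median of -0.02. They included Acly, which makes cytosolic acetyl-CoA, at 0.98, Insig1, a sterol-sensing regulator of SREBP, at 0.97, the desaturases Fads1 (0.94) and Fads2 (0.95), the fatty acid synthase Fasn (0.88) and the factors Srebf1 (0.83) and Srebf2 (0.87). With Pparg, 9 of the 19 had an r of -0.8 or lower, against 2.17% of other genes. Elovl1, Me1 and Fads3 on the same list had an r with Scd2 of 0.02, 0.64 and 0.49. These relations share the 10 libraries and are descriptions. Several genes here, and those with an r given for them below, were named after their values were seen.

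Of 14 tested lipid uptake and transport genes, 4 had an r of at least 0.8 with Scd2, among them the acyl-CoA synthetases Acsl3 (0.97) and Acsl4 (0.89), and the median r was 0.20. Of the 9 tested mature fat cell genes, 2 reached that value, Adipor2 (0.87) and Slc2a4 (0.83), the latter on 3 to 15 reads a library. Of 15 tested triglyceride and droplet genes, 3 did: Lpin1 (0.95), Plin3 (0.91) and Lipa (0.80). With Pparg, 1.90% of other tested genes had an r of at least 0.8. Of 13 tested genes listed as inhibitors of fat cell formation 2 did, Gata2 (0.93) and Id2 (0.88), and of 16 activators 1 did, Zfp423 (0.82). An r of -0.8 or lower with Pparg was held by 1 activator and 0 listed inhibitors, against 2.17% of other genes. With Scd2, an r of -0.8 or lower was held by 1 gene of the inhibitor list, Id2 (-0.90). On the activator list 2 genes held it, the glucocorticoid receptor Nr3c1 (-0.93) and Klf5 (-0.83), against 2.40% of other genes. Genes were placed on these lists by name, and the role of Id2 in these cells was not tested.

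Across 12324 genes of at least 1 CPM, those most like each of the 10 were sought by r centred within sex over the 10 libraries. The highest of so many r over 10 libraries are large by selection alone, and none of these relations was tested. The 3 most like Scd1 were Hmgcs1 and Sqle, enzymes of cholesterol synthesis, and Insig1, each at 0.99. The 3 most like Scd2 were Casp12 (0.99), Setd1a (0.99) and Wbp1l (0.98). Mrs2 (0.98), Nog (0.97) and Gxylt1 (0.96) were most like Pparg, and Mid2 (0.95), Rbm12b1 (0.94) and Gemin6 (0.94) most like Cd36. For Cebpa they were Timp1 (0.98), Lrrc32 (0.98) and Clic4 (0.96), and for Cebpb Hmg20b (0.97), Ndst1 (0.95) and Ik (0.95). For Cebpd they were Ndufs8, Fbxl6 and Coro1b, each at 0.97. For Lpl they were Tmem120a (0.95), Zfp518b (0.94) and Rnf215 (0.93), and for Fabp4 Fbxo22 (0.95), Gal3st1 (0.95) and Nudt12 (0.92). For Plin2 they were Tmem199 (0.97), Dda1 (0.96) and Creg1 (0.95).

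The fibroblast and progenitor sum had an r of 0.90 with Cebpd and 0.82 with Cebpb (permutation, adjusted p of 0.0184 and 0.0482; rho of 0.89 and 0.79, adjusted p of 0.0864 and 0.0919), and of 0.86 and 0.69 without the 2 farthest libraries. It ran from 23160 to 28940 CPM in males and from 22531 to 29883 in females, with Fn1 at 38.4% of it, and its part in these levels was not tested. With Scd1, Scd2 and Cd36 this sum had an r of 0.79, 0.77 and -0.75 (permutation, adjusted p of 0.0734, 0.0749 and 0.0754). The TMM scaling factor had an r of -0.80 with Cebpb (permutation, adjusted p = 0.0669), and -0.52 without the 2 farthest libraries. The share of reads in introns had an r of -0.81 with Cebpd and -0.77 with Plin2, which missed the threshold (permutation, adjusted p of 0.0734 and 0.074). Without the 2 farthest libraries these were -0.40 and -0.69. The largest absolute r of any of the 10 genes with the total of unique gene reads was 0.36. With the macrophage sum it was that of Cd36, an r of 0.69 and a rho of 0.71 (permutation, adjusted p of 0.138 and 0.123). Without the 2 farthest libraries this r was 0.18. With the endothelial sum it was that of Lpl, at 0.77, and Fabp4 had -0.76 (permutation, adjusted p of 0.0754 and 0.074). Their rho with it was 0.54 and -0.55 (permutation, adjusted p of 0.317 for both). Without the 2 farthest libraries r was 0.65 for Lpl and -0.40 for Fabp4.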

How the data were processed

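The authors deposited 1 table of gene read counts, whole numbers that are not normalized per the file headers, for 10 libraries. The headers separate unique from total reads and gene reads (exons and introns) from exon, intron and junction reads. Coordinates are those of mm10, the build in the submitters' processing notes, with aligner and counting rules not given in the sources used here. Starts count from 0 in the file and were converted to count from 1. The authors' deposited p-value, false discovery rate and signed fold per gene come from their own test, per the file headers. Another 90 columns with per-library values stayed unused.

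Unique gene reads were tested with edgeR 4.0.16 in R 4.3.3: filterByExpr with a minimum count of 10 (16602 genes), TMM scaling, robust quasi-likelihood fitting on sex alone, two-sided, and Benjamini-Hochberg adjustment over all tested genes. CPM are TMM-scaled. RPKM use unique exon reads and exon length, so their depth is that of unique exon reads, 22588200 to 32744611 a library. Correlations used log2(CPM + 0.5) and 100000 resamples, or exact enumeration under 10 libraries, in Python 3.11.15. The test was checked on simulated counts. Alternatives were other scalings, filters, tools (DESeq2 1.42.0, limma-voom 3.58.1) and read classes, the replicate number as a block, and leaving out each library. Splitting reads by class and the 6-library set were added after the data were seen.

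The 10 genes and the lists were chosen with earlier results of these data known. From each list, names were taken from the genes called between the sexes, the 2 highest in RPKM and the 2 with the smallest p, and 6 mature fat cell genes whatever their values. The 3 genes most like each of the 10 needed at least 1 CPM on average and no predicted-model symbol. Of 192 listed genes, 191 were in the table, and Itgam was not analysed here. PCR copies were not told apart by molecular identifiers, so reads are not independent molecules.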

Additional observations from a re-analysis of the deposited data

Results flagged for a closer look

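Cebpb in female replicate 2 was at 24.9 CPM, apart from the other 4 female libraries, which lay between 15.5 and 18.03 CPM: the gap to the nearest of them, as a share of the whole range, was above Dixon's critical value of 0.71 for 5 libraries. It was the only 1 of 32 groups of 5 libraries set apart in this way, and chance sets apart about 1 in 20 groups, or 1.6 of 32.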

How the results depend on the processing

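None of the 10 genes was called between the sexes under any of 19 alternatives, and the smallest adjusted p among 190 fits of a single gene was 0.373. Over all tested genes, 15 were called, and 30 with no filter, 72 with DESeq2 and between 12 and 36 with a library left out, the highest without male replicate 1. The replicate numbers were not taken as pairs, and the labels do not define any. The deviations of same-numbered libraries had an r of 0.13, 0.14, 0.22, 0.06 and 0.34 for numbers 1 to 5, all positive. Male replicates 1, 2, 3 and 5 and female replicates 1, 3 and 5 were most like their own number, and the others were not. With the replicate block, 43 genes were called and again 0 of the 10. The SE of the Scd2 log2 fold change was 0.054 with the block and 0.24 without it. At an unadjusted p under 0.05 the block gave 3 of the 10 (Scd2 0.0107, Pparg 0.0117 and Lpl 0.0217 in edgeR; adjusted p of 0.373, 0.379 and 0.452), and among all tested genes 1485. That count was 2 of the 10 with no filter (1797 of all 33541 genes), without male replicate 1 (1381 of 16873) and without female replicate 3 (989 of 16757). It was 1 of the 10 with unique exon reads (1011 of 13615), without female replicate 1 (833 of 16897) and without female replicate 4 (965 of 16912). The direction between the sexes turned in 9 fits, each with a library left out. Over the fits that left out a library, the log2 fold change of Cebpa ran from -0.062 (without female replicate 5) to 0.20, that of Cebpb from -0.078 (without female replicate 2) to 0.11, that of Cd36 from -0.17 to 0.079 (without female replicate 2) and that of Scd1 from -0.020 (without female replicate 2) to 0.24. It moved by over 1.5 times with the same sign for Scd2, from 0.034 (without female replicate 2) to 0.29 (without male replicate 1), for Cebpd, from -0.22 (without female replicate 2) to -0.033 (without male replicate 4), for Plin2, from -0.096 (without male replicate 5) to -0.019 (without male replicate 2), and for Lpl, to 0.11 without female replicate 5. Counting intron reads along with exon reads, still divided by exon length alone, put Pparg at 4.29 RPKM, above Fabp4 (3.46) and Lpl (3.21). Introns, which held 47.6% of the unique gene reads of Pparg, add reads but no length there. Counting all exon reads put Pparg at 2.71, below Fabp4 and Lpl. The count of covarying pairs, 6, was between 5 and 9 under its alternatives, 9 by Spearman's rho. Cd36, Fabp4 and Cebpa rest on at most 226 unique reads a library.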
